A study of Mus musculus with 14 samples.

Results

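The histone genes were followed in isolated Notch1+ cells and in entire retinas of C57BL/6 mice at postnatal day 0 (P0) and at embryonic day 14 (E14). The histone genes comprise the core histones H2A, H2B, H3 and H4, around which DNA is wound, and the linker histone H1. They were chosen by gene symbol, through the transcript that each probe of the array stands for, with the histocompatibility genes whose symbols also begin with H2 left out. The array held 86 probes for 74 histone genes, among 16159 genes with a symbol. Of these genes, 58 were replication-dependent, 9 were variants and 7 belonged to the testis.

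The groups were P0 Notch1+ cells (4 arrays), P0 whole retina (4 arrays), E14 Notch1+ cells (3 arrays) and E14 whole retina (3 arrays), all from the C57BL/6 strain without further treatment. For the isolation of Notch1+ cells, retinas of many eyes were pooled per preparation and dissociated with papain. The cells were then pulled out with an anti-Notch1 antibody and magnetic beads, so that a whole retina sample still holds its own Notch1+ cells. Each RNA sample was amplified, labeled with biotin and hybridized alone to 1 MEEBO array, a mouse array of long oligonucleotides, and the study describes the samples as independent biological replicates.

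Replication-dependent histone genes are expressed in S phase, when new chromatin needs large amounts of histone protein. Their mRNAs end in a stem-loop that is bound by Slbp and carry no poly(A) tail, although some of these genes can also make polyadenylated transcripts in cells that stop dividing. Most variant histone genes make ordinary polyadenylated mRNAs throughout the cell cycle, and their proteins replace the canonical ones at particular places in the genome. The developing retina holds dividing progenitors beside neurons that have left the cycle, so both kinds of histone mRNA are made in it. The amplification used here starts from poly(A), and how much of each histone mRNA it captured was not tested.

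Signal counted as above background when a spot's median exceeded the local background median by over 2 SDs of that background, which 9332 to 13547 mouse probes per array reached. The P0 Notch1+ arrays had 9764 to 10718 such probes and the P0 retina arrays 11345 to 13547, without overlap. At E14 there were 9332 to 10648 on the Notch1+ arrays and 10609 to 11975 on the retina arrays. The part of this difference in the calls was not tested. The 13683 probes above background on at least 3 of the 14 arrays entered 1 limma model of the 4 group means. Calls were made at a Benjamini-Hochberg adjusted p under 0.05 over all 13683 probes. Intensities are normalized linear values in scanner units, and each fold change is a log2 difference with its SE. All E14 arrays were scanned on 1 day, the P0 Notch1+ arrays on another and the P0 retina arrays on a further one, so that in comparisons with P0 samples the scan day cannot be told apart from the group. Notch1 itself averaged 33124 ± 14521 in P0 Notch1+ cells and 11710 ± 1349 in P0 retina (SD, n = 4 each, log2 fold change 1.39, adjusted p = 0.00422). At E14 it averaged 25617 ± 5598 in Notch1+ cells and 9137 ± 2028 in retina (SD, n = 3 each, log2 fold change 1.49, adjusted p = 0.0174). All 10 progenitor markers examined were above background in every group.

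The promoters of 4 members that were lower in P0 Notch1+ cells than in P0 retina are shown from RefSeq (build GRCm38.p6), each with 250 bases before and 50 bases from the annotated start on, because members of this family are known to share promoter elements. A window was found for 68 of the 74 genes. Capitals mark 3 motifs searched on both strands, which are the TATA box with the letters TATAAA, the box with the letters CCAAT, and the octamer of H2B promoters with the letters ATTTGCAT. No matches overlap in the windows shown. The linker histone gene H1f2 lies at chr13:23738557-23738856 on the plus strand, and the H2B gene H2bu2 at chr11:58948661-58948960 on the plus strand. The H2B gene H2bc12 lies at chr13:22035571-22035870 on the plus strand, and the H2A gene H2ac18 at chr3:96245247-96245546 on the plus strand. The windows of the variant genes H3f3b (chr11:116024455-116024754 on the minus strand) and H2az2 (chr11:6444394-6444693 on the minus strand) are given for contrast.
H1f2: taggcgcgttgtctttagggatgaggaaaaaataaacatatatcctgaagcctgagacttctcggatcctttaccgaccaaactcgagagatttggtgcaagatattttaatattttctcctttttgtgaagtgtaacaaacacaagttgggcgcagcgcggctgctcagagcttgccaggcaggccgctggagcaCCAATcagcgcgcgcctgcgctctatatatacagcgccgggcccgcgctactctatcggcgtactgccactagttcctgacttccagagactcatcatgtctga
H2bu2: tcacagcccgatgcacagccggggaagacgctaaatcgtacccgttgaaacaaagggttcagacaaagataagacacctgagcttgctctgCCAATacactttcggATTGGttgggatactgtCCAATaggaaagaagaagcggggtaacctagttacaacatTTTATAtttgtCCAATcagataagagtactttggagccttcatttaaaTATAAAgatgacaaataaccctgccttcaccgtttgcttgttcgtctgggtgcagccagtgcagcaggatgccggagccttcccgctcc
H2bc12: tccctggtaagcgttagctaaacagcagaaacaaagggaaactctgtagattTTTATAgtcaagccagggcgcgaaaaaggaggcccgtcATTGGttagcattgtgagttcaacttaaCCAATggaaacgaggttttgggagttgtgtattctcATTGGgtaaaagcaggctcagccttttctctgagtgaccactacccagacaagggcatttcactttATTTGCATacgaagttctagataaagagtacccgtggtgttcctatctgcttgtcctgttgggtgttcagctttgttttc
H2ac18: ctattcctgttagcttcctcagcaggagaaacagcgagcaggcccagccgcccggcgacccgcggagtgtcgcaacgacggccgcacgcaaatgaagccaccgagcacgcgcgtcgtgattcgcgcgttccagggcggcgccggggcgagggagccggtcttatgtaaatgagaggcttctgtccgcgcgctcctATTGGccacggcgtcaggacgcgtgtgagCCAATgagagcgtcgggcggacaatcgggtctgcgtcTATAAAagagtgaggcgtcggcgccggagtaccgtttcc
H3f3b: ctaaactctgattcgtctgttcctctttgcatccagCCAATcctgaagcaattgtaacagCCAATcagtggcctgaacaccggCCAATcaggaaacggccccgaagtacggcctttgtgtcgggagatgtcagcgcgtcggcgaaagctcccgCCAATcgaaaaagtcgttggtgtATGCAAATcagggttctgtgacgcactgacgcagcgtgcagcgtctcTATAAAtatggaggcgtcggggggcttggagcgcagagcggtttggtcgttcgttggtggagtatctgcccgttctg
H2az2: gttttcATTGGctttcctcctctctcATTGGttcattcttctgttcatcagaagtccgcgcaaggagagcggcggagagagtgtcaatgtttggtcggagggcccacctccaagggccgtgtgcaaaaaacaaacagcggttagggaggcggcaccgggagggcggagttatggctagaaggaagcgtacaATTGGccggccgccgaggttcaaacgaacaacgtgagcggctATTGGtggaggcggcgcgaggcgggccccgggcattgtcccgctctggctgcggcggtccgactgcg

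The TATA box was found in 31 of the 53 replication-dependent windows (58.5%) and in 1 of the 8 variant windows (12.5%, H3f3b), against 13.6% of all 32851 windows. The CCAAT box stood in 45 of 53 (84.9%) and in 5 of 8 (62.5%), against 37.4% of all windows. The octamer stood in 11 of 53 (20.8%), against 1.74% of all windows, and these 11 were 6 H2A and 5 H2B genes. Of the variants, H3f3b carried the octamer. Among the replication-dependent genes lower in P0 Notch1+ cells than in P0 retina, 5 of 10 windows held the TATA box and 3 of 10 the octamer. Among those tested and not called in that comparison, 18 of 31 held the TATA box and 4 of 31 the octamer. A match is a description of the letters in the window and not a measured binding site.

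Of the 86 histone probes, 55 were tested, which stand for 53 genes. These were 46 of the 70 replication-dependent probes, all 9 variant probes and none of the 7 testis probes, which were above background on no array. Of the replication-dependent probes, 30 were above background on all 14 arrays, and 21 on none. The families differed in how many probes passed: 13 of 18 for H2A, 13 of 16 for H2B, 8 of 14 for H3, 11 of 16 for H4 and 1 of 6 for H1. A probe could pass the filter through 1 group in which it is high, so the counts that follow cover the tested probes and not all members. Many of the replication-dependent genes have near-identical coding sequences, and how far a probe also binds the mRNA of a paralog was not tested. Levels of different probes are not set against each other.

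Saturated spots limit the H2A probes. Of the 13 tested H2A probes, 6 reached the scanner's ceiling on at least 1 array, and no other histone probe did. H2ac7 (formerly Hist1h2ad), a replication-dependent H2A gene, read 57861, 63227, 63227 and 62135 in P0 Notch1+ cells, against 50044, 59384, 60169 and 59384 in P0 retina. At E14 it read 64534, 63877 and 56525 in Notch1+ cells, against 61142, 63227 and 57861 in retina. It was saturated on all 7 retina arrays and on 2 of the 7 Notch1+ arrays, so that its retina level is only a bound and no fold is given.

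**Figure D1:**
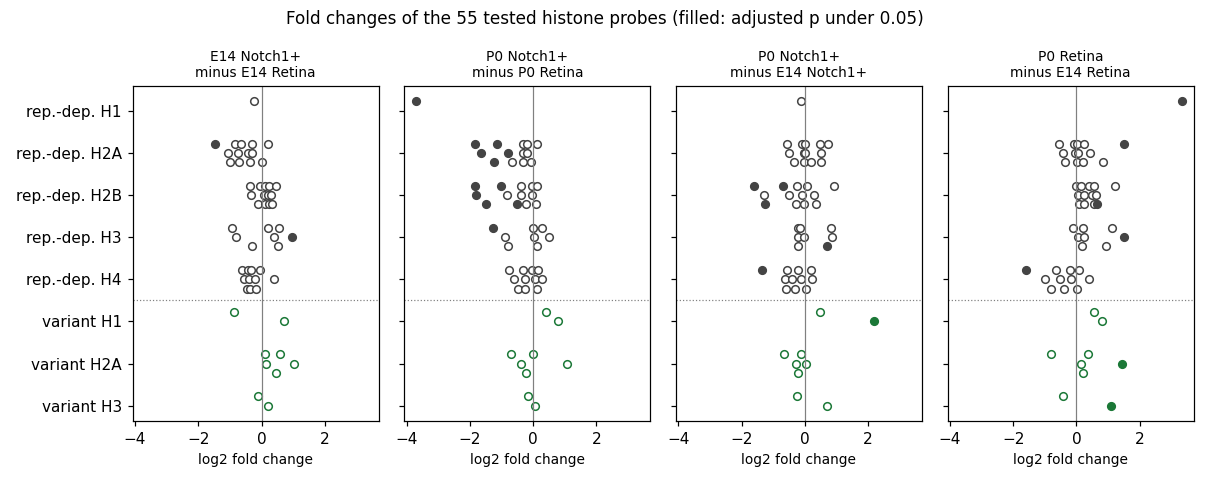
Log2 fold changes (x axis) of the 55 tested histone probes, by class and family (rows), in 4 comparisons, with filled points for an adjusted p under 0.05. In P0 Notch1+ cells against P0 retina, 12 replication-dependent points are filled and all lie below 0, down to -3.72, while none of the 9 variant points (green) is filled. These values are quantile normalized, and with the arrays scaled to 1 median 4 of the 9 variants were lower too.

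The comparison of P0 Notch1+ cells with P0 retina asked which genes set the Notch1+ cells apart at the late stage, and it held the most histone calls of the 4 comparisons. In it, 12 of the 55 tested histone probes (21.8%) were lower in Notch1+ cells and none was higher. Over all tested probes, 10.7% were called lower and 8.97% higher. All 12 were replication-dependent, 12 of 46 (26.1%), and stood for 11 genes: H1f2, 5 H2A genes, 4 H2B genes and H3c15. Among these genes, H2aw and H3c15 were above background on retina arrays only. They therefore passed the filter through the groups in which they were high. None of the 9 variant probes was called. With limma's unadjusted p under 0.05, no histone probe was higher and 1 variant probe was lower. With the methods' t-test at the unadjusted threshold, 1 histone probe, a variant, was higher. The median log2 fold change was -0.32 over the replication-dependent probes and -0.02 over the variant probes, against 0.01 over all tested probes.

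The direction of the replication-dependent calls did not depend on the scaling of the arrays, apart from 1 probe called higher under cyclic loess, but the contrast with the variants did. The values above come from quantile normalization, which sets the median of all tested probes close to 0. With the arrays scaled to 1 median instead, the median over all tested probes shifted to -0.37, with 320 probes called higher and 3778 lower (1227 and 1467 with quantile normalization). Then 25 of 46 replication-dependent probes (median log2 fold change -0.88) and 4 of 9 variant probes (median -0.91) were lower. With 1 common 75th percentile, 1070 probes were called higher and 2046 lower, among them 17 replication-dependent (median -0.56) and 2 variant probes (median -0.60). With the authors' scaling, 780 were called higher and 2273 lower, among them 17 replication-dependent (median -0.82) and 2 variant probes (median -0.56).

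Genes of other cell types moved in the same comparison, in which 10.7% of all tested probes were called lower and 8.97% higher. Of 7 tested rod and cone markers 5 were lower in P0 Notch1+ cells, with a summed intensity of 3609 to 5374 per array in P0 Notch1+ cells and 9890 to 18660 in P0 retina. Of 11 tested neuron markers 8 were lower, with sums of 9087 to 14182 in P0 Notch1+ cells and 13806 to 23053 in P0 retina. Of 5 tested endothelial markers 2 were higher, with sums of 3097 to 5086 in P0 Notch1+ cells and 1649 to 2224 in P0 retina. Among 10 tested progenitor markers 2 were higher and 1 was lower, and among 2 tested pigment epithelium markers 1 was lower. No tested red blood cell, lens or microglia marker was called. Of 12 neuron markers, 6 exceeded background on at least 1 array in P0 Notch1+ cells and 11 did in P0 retina. Those without such an array in P0 Notch1+ cells were Sncg, Gap43, Nefl, Nefm, Isl1 and Pou4f2, and Pou4f2 had none in P0 retina either, while Tubb3 averaged 9192 in P0 Notch1+ cells and 7042 in P0 retina and was not called. Of 10 rod and cone markers, 5 exceeded background in P0 Notch1+ cells and 9 did in P0 retina. Rcvrn and Pde6b were among those that did not in P0 Notch1+ cells, whereas Nrl (1504), Rbp3 (862) and Crx (553) were above background on all 4 P0 Notch1+ arrays. The part of these cells in the histone differences was not tested, and in whole tissue fewer cells of a type and less RNA per cell cannot be told apart.

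H1f2 (formerly Hist1h1c), which encodes a linker histone that binds DNA between nucleosomes, had the largest difference of all histone probes. Its intensity was 192, 261, 362 and 262 in P0 Notch1+ cells, against 4334, 2435, 5586 and 2425 in P0 retina. The groups were apart, and every retina array lay well above the highest Notch1+ array. It averaged 269 ± 70.2 in P0 Notch1+ cells and 3695 ± 1548 in P0 retina (SD, n = 4 each), with a log2 fold change of -3.72 ± 0.41 (SE, limma, adjusted p = 4.71e-05), or 13.2-fold lower. Leaving out any 1 P0 array kept the log2 fold change between -3.89 and -3.49. H1f2 was the only tested probe of the replication-dependent H1 genes, and the probes of H1f1, H1f3, H1f4 and H1f5 did not pass the filter.

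Of the 13 tested replication-dependent H2A probes, 5 were lower in P0 Notch1+ cells and 12 had a negative log2 fold change. H2ac18 and H2ac19, near-identical genes that lie beside each other, had similar patterns. H2ac18 (formerly Hist2h2aa1) had intensities of 158, 267, 172 and 206 in P0 Notch1+ cells, against 561, 583, 1204 and 614 in P0 retina (log2 fold change -1.83 ± 0.24, limma adjusted p = 0.000155). The groups lay apart, and P0 Retina replicate 3 stood above the others. These values are from the only tested H2ac18 probe, and the further probes of this gene were above background on no array. The brighter of those read 114, 123, 119 and 129 in P0 Notch1+ cells, against 126, 122, 126 and 125 in P0 retina. H2ac19 (formerly Hist2h2aa2) had 278, 393, 287 and 300 in P0 Notch1+ cells, against 1079, 836, 1975 and 500 in P0 retina (log2 fold change -1.64 ± 0.43, limma adjusted p = 0.0171). Its groups did not overlap either, but without P0 Retina replicate 3 the log2 fold change was -1.30 and the adjusted p 0.0503.

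The other called H2A genes were limited by saturation or by background. H2ac20 (formerly Hist2h2ac) had 24087, 26658, 36612 and 25238 in P0 Notch1+ cells, against 46005, 49417, 46703 and 50045 in P0 retina (log2 fold change -0.79 ± 0.22, limma adjusted p = 0.0237). The groups did not overlap, but 1 retina spot was saturated, and leaving out P0 Notch1+ replicate 1, 2 or 4 or P0 Retina replicate 4 gave log2 fold changes of -0.77 to -0.72 with adjusted p of 0.0506 to 0.0645. H2ac10 (formerly Hist1h2af) had 9687, 35940, 11649 and 14616 in P0 Notch1+ cells, against 26656, 29153, 60169 and 38610 in P0 retina (log2 fold change -1.23 ± 0.39, limma adjusted p = 0.0391). P0 Notch1+ replicate 2 lay within the retina range, 1 retina spot was saturated, and the adjusted p was 0.0812 to 0.111 without P0 Notch1+ replicate 1, 3 or 4 or P0 Retina replicate 3 or 4, with log2 fold changes of -1.21 to -0.99. H2aw (formerly Hist3h2a) had 93, 86.9, 95.6 and 89.1 in P0 Notch1+ cells, none above background, against 222, 206, 140 and 260 in P0 retina, where 3 of 4 arrays were above background, and the groups lay apart. Its fold is therefore a bound, at least 1.41-fold lower in Notch1+ cells (limma adjusted p = 0.000759), with the lowest detected signal of the P0 Notch1+ arrays taken in its place. The limma p beside this and later bounds belongs to the measured values and not to the bound. A further H2aw probe was above background on no array and was not tested.

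Of the 13 tested H2B probes, 5 were lower in P0 Notch1+ cells and 11 had a negative log2 fold change. H2bu2 (formerly Hist3h2ba), an H2B gene that lies outside the large histone cluster, had intensities of 931, 1465, 1122 and 704 in P0 Notch1+ cells, against 3445, 3848, 4087 and 3176 in P0 retina. The 4 Notch1+ arrays lay below every retina array, and the log2 fold change was -1.83 ± 0.20 (limma adjusted p = 3.79e-05), or 3.55-fold lower. H2bc12 (formerly Hist1h2bk) had 697, 1391, 488 and 926 in P0 Notch1+ cells, against 3066, 3743, 1807 and 3124 in P0 retina (log2 fold change -1.80 ± 0.38, limma adjusted p = 0.00513). Its groups did not overlap. H2bc7 (formerly Hist1h2bf) had 176, 182, 188 and 150 in P0 Notch1+ cells, against 278, 488, 374 and 294 in P0 retina (log2 fold change -1.01 ± 0.18, limma adjusted p = 0.0018). These groups lay apart as well, although close to background, with P0 Notch1+ replicate 4 not above it.

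H2bc4 (formerly Hist1h2bc), a further H2B gene, was measured by 2 tested probes. The first probe had 897, 2072, 1133 and 562 in P0 Notch1+ cells, against 3423, 3099, 4669 and 1469 in P0 retina (log2 fold change -1.49 ± 0.45, limma adjusted p = 0.0335). The groups overlapped, and the adjusted p was 0.0566 to 0.104 without P0 Notch1+ replicate 1, 3 or 4 or P0 Retina replicate 1, 2 or 3, with log2 fold changes of -1.53 to -1.19. The second probe had 102, 124, 112 and 85.2 in P0 Notch1+ cells, none of them above background, against 186, 138, 147 and 129 in P0 retina, with 2 of 4 above it. The groups lay apart by a small step. It was at least 1.04-fold lower, and limma on its measured values gave an adjusted p of 0.0461. Leaving out the same arrays gave an adjusted p of 0.0586 to 0.132.

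**Figure D2:**
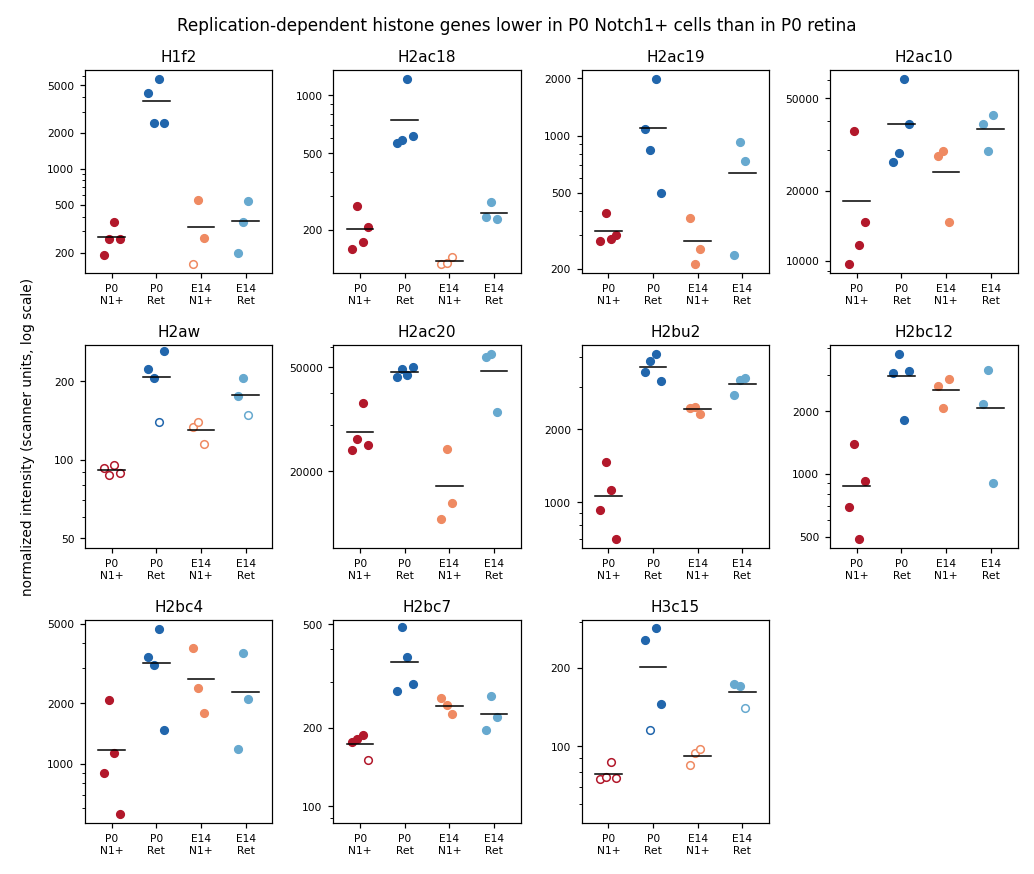
Normalized intensity per array (log axis) of the 11 replication-dependent genes called lower in P0 Notch1+ cells than in P0 retina, with lines at the group means and open points where the spot was not above background. For H1f2 the 4 P0 retina arrays lie between 2425 and 5586, and the other 10 arrays between 161 and 555.

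Of the 8 tested H3 probes, 1 was lower. H3c15 (formerly Hist2h3c2) had 75.1, 76, 86.9 and 75.3 in P0 Notch1+ cells, none above background, against 256, 116, 285 and 146 in P0 retina, with 3 of 4 above it. It was at least 1.31-fold lower in Notch1+ cells (limma adjusted p = 0.00286), and the groups did not overlap. H3c13 (formerly Hist2h3b), a further H3 gene, was not called: it had 10348, 10234, 9634 and 13049 in P0 Notch1+ cells, against 21070, 18275, 14698 and 27792 in P0 retina (log2 fold change -0.89 ± 0.32, limma adjusted p = 0.069). Its groups did not overlap all the same.

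None of the 11 tested H4 probes was called in this comparison, with log2 fold changes of -0.77 to 0.29 (2 were lower at limma's unadjusted p under 0.05, and 1 by the methods' t-test at the unadjusted threshold). The array therefore gave the core histone families different counts of lower probes at P0, 5 of 13 for H2A, 5 of 13 for H2B, 1 of 8 for H3 and 0 of 11 for H4. These are 38.5%, 38.5%, 12.5% and 0%, against 10.7% of all tested probes. Whether these shares differ was not tested.

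Without any 1 of the 8 P0 arrays, 8 to 11 histone probes were lower and none was higher, and those lower included 1 variant probe without P0 Retina replicate 1. The count was 8 without P0 Notch1+ replicate 1, P0 Notch1+ replicate 4 or P0 Retina replicate 3. Among the 38 histone probes above background on all 14 arrays, 6 were lower, all of them among the 30 replication-dependent ones (20%). Without the probes that reached saturation, 10 of 40 replication-dependent probes were lower (25%). The matching shares over all probes were not computed for these subsets or without 1 array. The staining mark that the array headers carry (an array dipped again) was present on 1 of 4 P0 Notch1+ arrays and 4 of 4 P0 retina arrays, and with that mark in the model 7 were lower, the probes of H1f2, H2ac18, H2ac20, H2aw, H2bu2, H2bc7 and H3c15. Of all 13683 tested probes, 710 were lower with the mark in the model and 1467 without it.

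At E14, few histone probes separated Notch1+ cells from retina: 1 of 55 (1.82%) was higher and 1 (1.82%) lower, against 2.67% and 3.24% of all tested probes. Both were replication-dependent. No variant probe was called, with 2 higher and none lower at the unadjusted threshold by limma and by the methods' t-test. The median log2 fold change was -0.26 over the replication-dependent probes and 0.22 over the variant probes, against 0.01 over all tested probes, and the variant median was 0.01 with the arrays scaled to 1 median. H2ac20 had 13049, 24413 and 15042 in E14 Notch1+ cells, against 54608, 56525 and 33741 in E14 retina, with 2 of the 3 retina spots saturated, so that the retina level is uncertain (log2 fold change -1.48 ± 0.26, limma adjusted p = 0.00452). These lay apart. H3c1 (formerly Hist1h3a), an H3 gene, moved the other way, with 308, 229 and 225 in E14 Notch1+ cells, against 145, 115 and 132 in E14 retina, where 1 of 3 arrays was above background (log2 fold change 0.95 ± 0.21, limma adjusted p = 0.0188). Its adjusted p was 0.0594 to 0.082 without E14 Notch1+ replicate 1 or E14 Retina replicate 2 or 3, with log2 fold changes of 0.80 to 0.96. Of 11 tested neuron markers 8 were lower in E14 Notch1+ cells, with sums of 18983 to 21372 per array in E14 Notch1+ cells and 47864 to 53400 in E14 retina, while the lens markers had sums of 441 to 476 in E14 Notch1+ cells and 664 to 4107 in E14 retina, and their part in these differences was not tested.

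Of the genes that were lower at P0, H2ac20 alone was called at E14. H1f2 had 161, 555 and 264 in E14 Notch1+ cells, against 197, 362 and 543 in E14 retina, and the ranges overlapped (log2 fold change -0.24 ± 0.47, limma adjusted p = 0.858). H2bu2 had 2454, 2478 and 2325 in E14 Notch1+ cells, against 2774, 3189 and 3274 in E14 retina, which lay apart by a small step (log2 fold change -0.34 ± 0.23, limma adjusted p = 0.462). H2ac18 had 133, 135 and 145 in E14 Notch1+ cells, none above background, against 233, 277 and 226 in E14 retina, at least 1.69-fold lower but not called (limma adjusted p = 0.103).

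Whether the difference of Notch1+ cells from retina itself changed between the stages was tested directly. It was more negative at P0 than at E14 for 2 of the 55 probes (3.64%) and more positive for none, against 1.52% and 0.95% of all tested probes. At limma's unadjusted p under 0.05, 13 histone probes were more negative, 12 of them replication-dependent, and 1, a variant, was more positive. The 2 were H1f2, with a stage difference of -3.48 ± 0.63 on the log2 scale (limma adjusted p = 0.0139), and H2bu2, with -1.48 ± 0.30 (limma adjusted p = 0.0228). For H2bu2 the adjusted p was 0.0544 without E14 Notch1+ replicate 2 and 0.0641 without E14 Retina replicate 1, with log2 values of -1.47 and -1.41. H2bc7 and H2bc12 had stage differences of -1.13 ± 0.28 and -2.25 ± 0.59 that did not pass the threshold (limma adjusted p = 0.0525 and 0.0613).

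The stages were also compared in whole retina. In P0 retina against E14 retina, 6 of the 55 probes (10.9%) were higher and 1 (1.82%) was lower, against 7.67% and 6.61% of all tested probes. Whether the histone shares differ from these was not tested. Of the 6 higher probes, 4 were replication-dependent (H1f2, H2ac18, H3c1 and H2bc7) and 2 were variants (H2az2 and H3f3b). Among the 30 replication-dependent probes above background on all 14 arrays, none was higher and 1 was lower. H1f2 averaged 3695 ± 1548 in P0 retina (SD, n = 4) and 367 ± 173 in E14 retina (SD, n = 3), a log2 fold change of 3.35 ± 0.44 (limma adjusted p = 0.000292), or 10.2-fold higher. H2ac18 averaged 740 ± 310 in P0 retina and 246 ± 27.8 in E14 retina (log2 fold change 1.52 ± 0.26, limma adjusted p = 0.00174). In both genes every P0 retina array lay above every E14 retina array.

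H3c1 had 347, 390, 303 and 479 in P0 retina, against 145, 115 and 132 in E14 retina (log2 fold change 1.52 ± 0.20, limma adjusted p = 0.000286). The groups lay apart, but only 1 of the 3 E14 retina arrays was above background, so that the E14 retina level is uncertain. H2bc7 rose less, with 278, 488, 374 and 294 in P0 retina, against 196, 264 and 220 in E14 retina (log2 fold change 0.64 ± 0.20, limma adjusted p = 0.0469). Its groups did not overlap, and its adjusted p was 0.0543 to 0.167 without E14 Retina replicate 1, 2 or 3 or P0 Retina replicate 2 or 3, with log2 fold changes of 0.48 to 0.75. The rod and cone markers had sums of 9890 to 18660 per array in P0 retina and 2726 to 3252 in E14 retina, and 5 of 7 were higher, while 7 of 11 neuron markers were lower. Their part in the histone differences was not tested.

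H4c9 (formerly Hist1h4i), an H4 gene, fell between the stages by its first probe. This probe had 728, 395, 1236 and 789 in P0 retina, against 1830, 2530 and 2382 in E14 retina (log2 fold change -1.61 ± 0.38, limma adjusted p = 0.0131), and 503, 665, 732 and 475 in P0 Notch1+ cells, against 796, 1972 and 2195 in E14 Notch1+ cells (log2 fold change -1.37 ± 0.38, limma adjusted p = 0.036). The stages did not overlap in either tissue. The call in retina was lost without E14 Retina replicate 2 (log2 fold change -1.52, adjusted p = 0.0518). In Notch1+ cells the adjusted p was 0.0523 to 0.128 without E14 Notch1+ replicate 2 or 3 or P0 Notch1+ replicate 1, 2 or 4, with log2 fold changes of -1.43 to -1.10. The second probe of H4c9 was not called, with 455, 849, 474 and 373 in P0 retina, against 321, 433 and 412 in E14 retina (log2 fold change 0.41 ± 0.26, limma adjusted p = 0.328). It had 260, 359, 376 and 348 in P0 Notch1+ cells, against 407, 569 and 576 in E14 Notch1+ cells, lower without overlap but not called (log2 fold change -0.62 ± 0.26, limma adjusted p = 0.141). The 2 probes thus had opposite signs in retina and the same sign in Notch1+ cells, and the level of H4c9 in retina is uncertain.

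In Notch1+ cells, 2 of the 55 probes (3.64%) were higher at P0 than at E14 and 4 (7.27%) were lower, against 5.92% and 5.17% of all tested probes. H1f10 (a variant) and H3c1 were higher, and H2bc12, H2bu2, the second H2bc4 probe and H4c9 were lower. H2bu2 averaged 1056 ± 322 in P0 Notch1+ cells (SD, n = 4) and 2419 ± 82.1 in E14 Notch1+ cells (SD, n = 3), with no overlap (log2 fold change -1.25 ± 0.21, limma adjusted p = 0.00288). H2bc12 averaged 875 ± 387 in P0 Notch1+ cells and 2529 ± 413 in E14 Notch1+ cells (log2 fold change -1.62 ± 0.41, limma adjusted p = 0.0246). Its groups did not overlap, but the adjusted p was 0.0505 to 0.072 without E14 Notch1+ replicate 1, 2 or 3 or P0 Notch1+ replicate 1 or 3, with log2 fold changes of -1.76 to -1.38. The second H2bc4 probe, not detected above background in P0 Notch1+ cells, was at least 1.18-fold lower (limma adjusted p = 0.0252, and 0.0649 to 0.103 without P0 Notch1+ replicate 4 or E14 Notch1+ replicate 2). H3c1 had 394, 465, 324 and 468 in P0 Notch1+ cells, against 308, 229 and 225 in E14 Notch1+ cells (log2 fold change 0.70 ± 0.20, limma adjusted p = 0.0397). The groups did not overlap, and the adjusted p was 0.0624 to 0.126 without P0 Notch1+ replicate 1, 2 or 4 or E14 Notch1+ replicate 2 or 3, with log2 fold changes of 0.62 to 0.72. The call of H3c1 was also lost with the arrays scaled to 1 median (log2 fold change 0.34, adjusted p = 0.325). Of 11 tested neuron markers 6 were lower at P0, with sums of 9087 to 14182 per array in P0 Notch1+ cells and 18983 to 21372 in E14 Notch1+ cells. Of 7 tested rod and cone markers 2, Nrl and Rbp3, were higher, with sums of 3609 to 5374 in P0 Notch1+ cells and 2591 to 2993 in E14 Notch1+ cells, and of 5 tested endothelial markers 1, Cldn5, was higher. The part of these cells was not tested. Each group serves in several comparisons, so the calls of 1 comparison are not independent of those of another.

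The 9 variant genes were all above background on at least 13 of the 14 arrays, and only 3 passed the test in any comparison. H1f10 (formerly H1fx), a linker histone variant, had 3039, 2811, 4321 and 2975 in P0 Notch1+ cells, against 210, 1135 and 1497 in E14 Notch1+ cells. There was no overlap, and E14 Notch1+ replicate 1 lay far below the other arrays. The log2 fold change was 2.19 ± 0.51 (limma adjusted p = 0.0158), and without that array it was 1.31 and still called. The call was lost with the arrays scaled to 1 median (log2 fold change 1.62, adjusted p = 0.0637) and with the mark for an array dipped again in the model (1.93, adjusted p = 0.0526). In retina it had 2079, 1342, 2580 and 1784 at P0, against 1686, 1049 and 1245 at E14, and was not called (log2 fold change 0.54 ± 0.51, limma adjusted p = 0.527).

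H2az2 (formerly H2afv) encodes an H2A.Z, a variant found at promoters and other regulatory sites. It had 15308, 39995, 28240 and 46007 in P0 retina, against 9684 and 12464 in E14 retina, where the spot of replicate 3 was marked as bad and left out. P0 lay above E14 without overlap (log2 fold change 1.44 ± 0.39, limma adjusted p = 0.0291). Without P0 Retina replicate 2, 3 or 4 or E14 Retina replicate 1 or 2 the adjusted p was 0.0502 to 0.167, with log2 fold changes of 1.23 to 1.62. In Notch1+ cells H2az2 had 25457, 12061, 18822 and 19757 at P0, against 26868, 19754 and 21287 at E14, with overlap (log2 fold change -0.29 ± 0.35, limma adjusted p = 0.642). H2az1 (formerly H2afz), the other H2A.Z gene, had 1444, 987, 1329 and 2457 in P0 Notch1+ cells, against 438, 664, 1532 and 533 in P0 retina, and its arrays spread widely in every group (log2 fold change 1.07 ± 0.58, limma adjusted p = 0.218). At E14 it had 2303, 3253 and 666 in Notch1+ cells, against 680, 3292 and 833 in retina.

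H3f3a and H3f3b encode the same H3.3 protein, which is laid down at active genes outside S phase. H3f3b had 23022, 16412, 16207 and 15309 in P0 retina, against 11452, 4567 and 10658 in E14 retina (log2 fold change 1.09 ± 0.31, limma adjusted p = 0.0342). The groups did not overlap. Without P0 Retina replicate 1, 2, 3 or 4 or E14 Retina replicate 2 the adjusted p was 0.0509 to 0.151, and the log2 fold change was lowest, 0.66, without E14 Retina replicate 2. In Notch1+ cells H3f3b had 16206, 13050, 16048 and 17363 at P0, against 10815, 6303 and 12853 at E14, also without overlap but not called (log2 fold change 0.70 ± 0.31, limma adjusted p = 0.168). H3f3a had 3120, 4107, 3574 and 2290 in P0 retina, against 3340, 3660 and 6246 in E14 retina, with overlap (log2 fold change -0.41 ± 0.33, limma adjusted p = 0.456). Its levels in Notch1+ cells were 4647, 3533, 3824 and 1909 at P0, against 3191, 3377 and 5746 at E14.

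**Figure D3:**
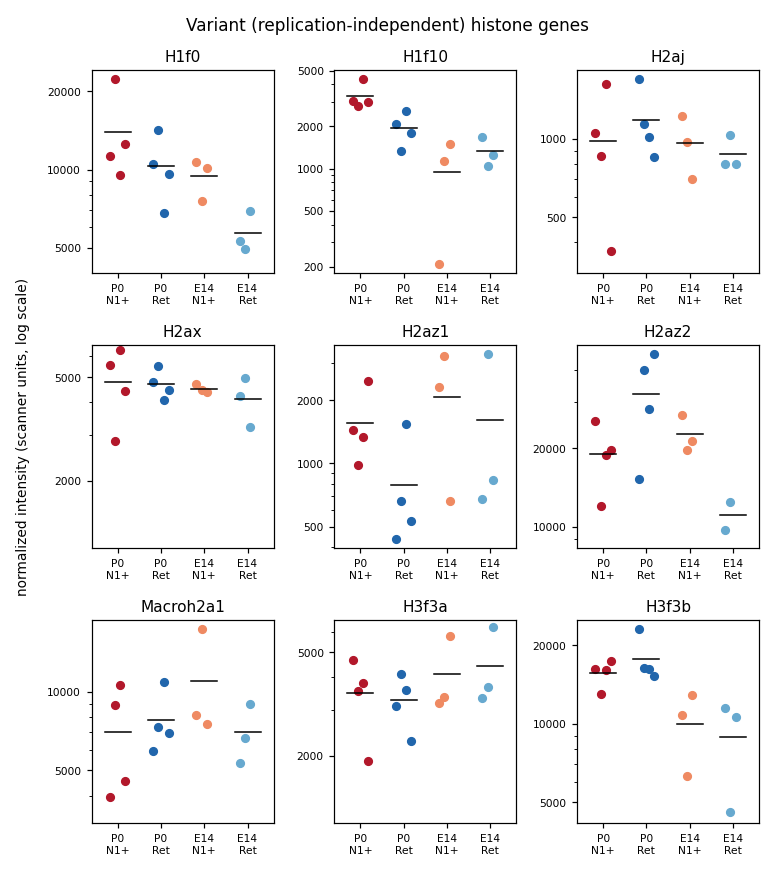
Normalized intensity per array (log axis) of the 9 variant histone genes in the 4 groups, with lines at the group means. H3f3b and H2az2 lie higher in P0 than in E14 retina, H1f10 has 1 low array of 210 in E14 Notch1+ cells, and the H2ax groups overlap.

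The remaining variants passed no test. H1f0, a linker histone that accumulates in cells that no longer divide, had 11276, 22298, 9486 and 12575 in P0 Notch1+ cells, against 10527, 14240, 6838 and 9634 in P0 retina, with overlap (log2 fold change 0.40 ± 0.27, limma adjusted p = 0.335). At E14 it had 10658, 7571 and 10129 in Notch1+ cells, against 5295, 4964 and 6926 in retina, which did not overlap (log2 fold change 0.72 ± 0.32, limma adjusted p = 0.226). H2ax, the variant that is phosphorylated at DNA breaks, had 5546, 2853, 6365 and 4430 in P0 Notch1+ cells, against 4778, 5516, 4068 and 4459 in P0 retina, and 4701, 4473 and 4367 in E14 Notch1+ cells, against 4237, 4947 and 3208 in E14 retina. Its ranges overlapped in all comparisons, with log2 fold changes of -0.02 to 0.20.

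Macroh2a1 (formerly H2afy), a variant with a large extra domain that is found in silent chromatin, had 3966, 8941, 10581 and 4553 in P0 Notch1+ cells, against 5955, 7349, 10915 and 6970 in P0 retina (log2 fold change -0.24 ± 0.35, limma adjusted p = 0.686). At E14 it had 8137, 17480 and 7495 in Notch1+ cells, against 5323, 6653 and 8990 in retina (log2 fold change 0.58 ± 0.41, limma adjusted p = 0.504). The ranges overlapped at both stages. H2aj (formerly H2afj), an H2A variant close in sequence to the canonical protein, had 1057, 862, 1620 and 371 in P0 Notch1+ cells, against 1698, 1137, 1013 and 854 in P0 retina, and 1221, 971 and 699 in E14 Notch1+ cells, against 801, 1031 and 802 in E14 retina. Its ranges overlapped as well.

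Set beside each other, the replication-dependent probes had more lower calls in P0 Notch1+ cells than the variants (12 of 46 and 0 of 9), and in P0 retina against E14 retina 4 of 46 and 2 of 9 were higher. Over all tested probes, 10.7% were lower in the first comparison and 7.67% higher in the second. Whether these shares differ was not tested, and under the other scalings given above, cyclic loess apart, some variant probes were called lower too. When each probe was centered on its mean over the 14 arrays, the median over the replication-dependent probes was -0.51, 0.06, -0.17 and -0.30 in P0 Notch1+ cells and 0.14, 0.24, 0.16 and 0.11 in P0 retina on the log2 scale. The 4 P0 retina arrays lay above the 4 P0 Notch1+ arrays. It was -0.08, 0.10 and -0.22 in E14 Notch1+ cells and -0.09, 0.12 and 0.11 in E14 retina, with overlap. The same median over the variant probes was 0.30, -0.02, 0.34 and -0.02 in P0 Notch1+ cells and 0.09, 0.26, 0.36 and -0.01 in P0 retina, with overlap, and 0.11, -0.06 and -0.01 in E14 Notch1+ cells, all above the -0.25, -0.18 and -0.33 in E14 retina.

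Genes that act with the histones were counted from 3 lists, with calls by limma at the adjusted threshold. In P0 Notch1+ cells against P0 retina, 8.97% of all tested probes were called higher and 10.7% lower. Of 13 tested genes for histone mRNA transcription and 3' end processing, 3 were higher in P0 Notch1+ cells than in P0 retina and none was lower, also at the unadjusted threshold by limma and by the methods' t-test. These were Cdk2, the kinase of S phase entry (2538 ± 244 in P0 Notch1+ cells and 1364 ± 385 in P0 retina, log2 fold change 0.94), Upf1, a helicase of mRNA decay that also acts on histone mRNA (log2 fold change 0.94), and the cell cycle factor E2f4 (0.54). Between the stages in Notch1+ cells, Npat, the coactivator of replication-dependent histone genes, averaged 176 ± 52.6 at P0 and 275 ± 18 at E14 (log2 fold change -0.69 ± 0.21, limma adjusted p = 0.0464), with 2 of the 4 P0 arrays above background. Cpsf2, a subunit of the 3' end cleavage complex, was lower as well (log2 fold change -0.62). In retina, E2f1 was higher at P0 (log2 fold change 1.18).

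Of 21 tested histone chaperone and import genes, 3 were higher in P0 Notch1+ cells than in P0 retina, and 7 were lower in P0 retina than in E14 retina. Over all tested probes, 8.97% were higher in the first comparison and 6.61% lower in the second. Nasp, the chaperone of H1 and of H3 and H4, averaged 2038 ± 449 in P0 Notch1+ cells and 850 ± 176 in P0 retina (log2 fold change 1.26 ± 0.28, limma adjusted p = 0.00695), and 2788 ± 1028 in E14 retina. Supt16, a subunit of the H2A and H2B chaperone FACT (log2 fold change 0.89), and Mms22l (0.86), which acts at replication forks, were the others higher. The largest decreases in retina were those of Nasp (log2 fold change -1.67), Rbbp7 (-1.54), a subunit shared by several histone-binding complexes, Mms22l (-1.15) and Supt6 (-1.11), a chaperone of transcribed genes. Hat1, which acetylates new H4, was lower at P0 than at E14 in Notch1+ cells (log2 fold change -0.96) and in retina (-0.89).

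Of 39 tested S phase and DNA replication genes, 4 were higher in P0 Notch1+ cells than in P0 retina and none was lower, although 2 were lower at limma's unadjusted p under 0.05 and 1 by the methods' t-test at the unadjusted threshold. They were the DNA ligase gene Lig1 (2592 ± 182 in P0 Notch1+ cells and 761 ± 316 in P0 retina, log2 fold change 1.86), the replication factors Mcm10 (1.13) and Mcm7 (0.93) and the clamp loader subunit Rfc3 (0.77). Over all tested probes, 8.97% were called higher and 10.7% lower in that comparison, and whether the S phase share differs from this was not tested. In P0 retina against E14 retina, 12 of 39 were lower and none was higher, also at the unadjusted threshold by limma and by the methods' t-test, with Lig1 (log2 fold change -1.87), Uhrf1 (-1.78), a reader of newly copied DNA, Mcm10 (-1.55) and the polymerase gene Pole (-1.17) changed the most. There, 6.61% of all tested probes were called lower and 7.67% higher. At E14, Uhrf1 (-1.72) was lower in Notch1+ cells, and Dut, the dUTPase gene, was at least 1.44-fold lower, with no E14 Notch1+ array above background. In Notch1+ cells between the stages, Chek1, a checkpoint kinase, was lower at P0 (-0.91). The median log2 fold change in P0 retina against E14 retina was -0.73 over the S phase genes, 0.11 over the replication-dependent histone probes and 0.38 over the variant probes.

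Most of these calls at P0 depended on the scaling. With the arrays scaled to 1 median, which shifted the median of all tested probes to -0.37, the medians in P0 Notch1+ cells against P0 retina were -0.31 over the S phase genes (1 higher and 8 lower), -0.43 over the chaperone and import genes (0 higher and 5 lower) and -0.46 over the histone mRNA genes (0 higher and 4 lower). With quantile normalization the 3 medians were 0.14, 0.2 and 0.1. With 1 common 75th percentile and in the authors' value table, 1 S phase gene was higher and 2 were lower. No gene of the other lists was higher, and those lower were 2 chaperone and import genes and 2 histone mRNA genes with the 75th percentile and 1 and 2 in the authors' table. Under cyclic loess, 4 S phase, 3 chaperone and import and 2 histone mRNA genes were higher and none was lower. Lig1 was called higher under each of these scalings (log2 fold change 1.08 to 1.86, adjusted p = 0.0202 with 1 median), whereas none of the other 9 genes was called with 1 median, with 1 common 75th percentile or in the authors' table. Under cyclic loess 8 of those 9 were called. The exception was E2f4 (adjusted p = 0.0793), which had a log2 fold change of -0.05 with 1 median. With the mark for an array dipped again in the model, Lig1 and Mcm10 were called and the other 8 were not.

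Single arrays decided further calls. Lig1, Mcm7, Rfc3, Nasp and Cdk2 kept their call at P0 without any 1 P0 array, while E2f4, Mcm10, Mms22l, Supt16 and Upf1 had an adjusted p of 0.0503 to 0.109 without 1 of them. The lower S phase genes in P0 retina against E14 retina numbered 14 or 15 under the 4 other scalings and 7 to 10 without 1 array, 7 without E14 Retina replicate 1. The lower chaperone and import genes numbered 6 or 7 under those scalings and 2 to 6 without 1 array, with 2 without E14 Retina replicate 1 and 4 without E14 Retina replicate 2 or 3. Without 1 array, 0 to 2 histone mRNA genes were lower in P0 against E14 Notch1+ cells, and at E14 0 to 2 S phase genes were lower in Notch1+ cells than in retina.

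**Figure D4:**
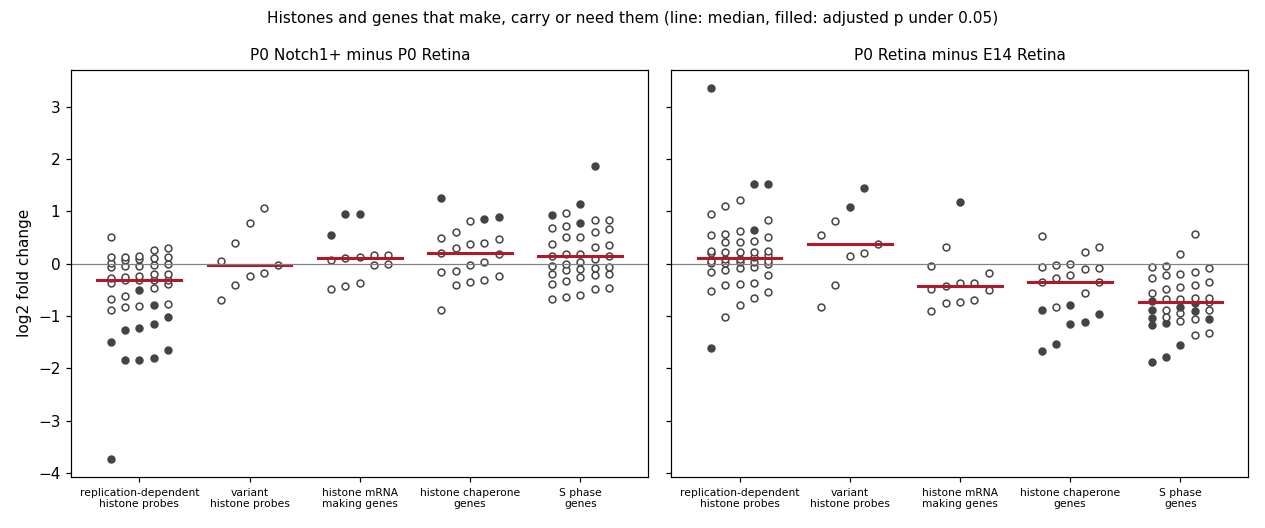
Log2 fold changes (y axis) of the histone probes and of the 3 other lists (1 probe per gene), with a line at each median and filled points for an adjusted p under 0.05. In P0 Notch1+ cells against P0 retina the medians are -0.32 for replication-dependent histones and 0.14 for S phase genes, and in P0 retina against E14 retina they are 0.11 and -0.73. With the arrays scaled to 1 median, the S phase median at P0 is -0.31.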

How the data were processed

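RNA of 14 samples (4 P0 Notch1+, 4 P0 retina, 3 E14 Notch1+ and 3 E14 retina) was hybridized to 1-color MEEBO arrays and scanned. The authors deposited GenePix Pro 4.1.1.4 spot files whose foreground and background columns are intensity values before any normalization. They also deposited a table of log2 values that they made by subtracting the background and scaling each array. The scaling factors of the arrays, 0.613 to 1.41, were recovered from the values. With these factors, 34246 of the 34279 lines matched a rebuilt probe on all arrays to 2 decimals of log2. The table of log2 values served as an alternative only.

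Intensities were background-corrected with normexp (offset 50) in limma 3.58.1 (R 4.3.3), quantile normalized over 34312 mouse probes and tested on the log2 scale, with spots marked as bad left out. Probes above background on at least 3 of 14 arrays (13683) entered 1 model with the 4 group means, with Benjamini-Hochberg adjustment over all of them. The arrays hold intensities and no counts, so their number limits the precision. Folds against a group not above background on any array are bounds, with that group set at the lowest detected signal of each array or its own value, whichever was higher. The limma p beside a bound was computed on the measured values. Probes were tied to genes through RefSeq transcripts. Variant genes, called replication-dependent genes (by family, up to 6 each, each represented by its probe of highest mean), the brightest of each family, genes whose probes disagreed, and up to 4 called genes of each other list were named. The members and lists were chosen with earlier results of these data known. The replicate numbers did not pair the samples, with correlations of the deviations of same-numbered samples of -0.068 to 0.118. Alternatives were other background corrections and scalings, filters, models, the methods' t-test and leaving out each array. The fit was tested on simulated data. Fold change and p-value columns of the authors were not used.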

Additional observations from a re-analysis of the deposited data

Results flagged for a closer look

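Of the 52 groups of 4 arrays examined for the named probes, 4 held 1 array apart from the other 3 by Dixon's criterion, which chance alone meets in about 1 group in 20. H3f3b was 23022 in P0 Retina replicate 1, against 15309 to 16412 in the other P0 retina arrays. H2ac18 was 1204 in P0 Retina replicate 3, against 561 to 614 in the others. H2ac7 was 50044 in P0 Retina replicate 1, against 59384 to 60169 in the others, and all 4 of these spots were saturated. H3c15 was 86.9 in P0 Notch1+ replicate 3, against 75.1 to 76 in the other P0 Notch1+ arrays, none of which was above background.

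The difference of Notch1+ cells from retina changed with the stage for H1f2 (P0 minus E14, -3.48 on the log2 scale) and for H2bu2 (-1.48), by the interaction term of the limma model. Rod and cone markers were 5 of 7 lower in P0 Notch1+ cells and 0 of 7 lower in E14 Notch1+ cells by limma (0 also at the unadjusted p and by the methods' t-test), and their part in these 2 differences was not tested.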

How the results depend on the processing

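No called log2 fold change of a named histone probe changed sign. The variant median in P0 Notch1+ cells against P0 retina, -0.02, was 0.02 with the mark for an array dipped again and without P0 Notch1+ replicate 2, and 0.05 without P0 Retina replicate 2. The histone probes lower in P0 Notch1+ cells than in P0 retina, 12, numbered 29 with the arrays scaled to 1 median, 19 with 1 common 75th percentile, 19 in the authors' value table, 7 with the mark for an array dipped again in the model and 6 over probes above background on all arrays (8 to 11 without 1 array). None was higher, but 1 was under cyclic loess, with the compared groups alone and by the methods' t-test, unadjusted (0 without any 1 array). At E14, the probes higher in Notch1+ cells, 1, numbered 2 without a filter, 3 by the t-test unadjusted and 0 after Benjamini-Hochberg, with the compared groups alone or above background on all arrays (0 to 1 without 1 array). Those lower, 1, numbered 2 with plain background subtraction, with 1 median or without a filter, 3 in the authors' table, 4 by the t-test unadjusted, 0 after Benjamini-Hochberg and 0 without saturated probes (1 to 2 without 1 array).

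In P0 against E14 Notch1+ cells, the probes higher, 2, numbered 0 with 1 median and by the t-test after Benjamini-Hochberg, 5 by the t-test unadjusted, and 1 with the 75th percentile, cyclic loess, the authors' table, the stricter filter (7 arrays), the re-dip mark, the replicate block, the compared groups alone or above background on all arrays (1 to 2 without 1 array). Those lower, 4, numbered 9 with 1 median and by the t-test unadjusted, 7 in the authors' table, 2 under cyclic loess and with the compared groups alone, 1 with the re-dip mark and 0 by the t-test after Benjamini-Hochberg (1 to 3 without 1 array). In P0 against E14 retina, those higher, 6, numbered 3 with the compared groups alone, 2 by the t-test after Benjamini-Hochberg and 1 above background on all arrays (3 to 5 without 1 array). Those lower, 1, numbered 2 with 1 median, the 75th percentile, cyclic loess or the authors' table, 5 without a filter, 3 by the t-test unadjusted and 0 after Benjamini-Hochberg (0 to 3 without 1 array). The stage difference was more negative for 2, and for 9 with 1 median, 7 with the 75th percentile or the authors' table and 1 above background on all arrays (1 to 4 without 1 array). It was more positive for 0 at the adjusted threshold under each limma alternative run, leaving out any 1 array included, with 1 at the unadjusted p and no t-test run.

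The replicate numbers did not pair the samples. With the replicate block, 12 probes stayed the count lower in P0 Notch1+ cells than in P0 retina, and the other counts were 1 and 1 at E14, 1 and 3 in Notch1+ cells, 6 and 1 in retina and 3 for the stage difference. The 2 alternatives on saturated probes and on probes above background on all arrays were chosen after seeing the data. Scaling to 1 median shifted the median of all tested probes by -0.14 at E14, -0.37 at P0, -0.26 between the Notch1+ groups and -0.23 for the stage difference, and the share of higher calls moved with it to 240 higher and 657 lower at E14 and to 293 higher and 1498 lower in Notch1+ cells. Low signals limit H2aw, H3c15, H2bc7, the second H2bc4 probe and, in E14 retina, H3c1, and saturation limits 6 H2A probes.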
